A study of Mus musculus with 12 samples.

Results

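The genes described are those of the 4 Hox clusters of the mouse. A gene was taken where a probe set of the array was annotated to it alone and its symbol was Hoxa, Hoxb, Hoxc or Hoxd followed by a number from 1 to 13. This gave 37 of the 19938 genes with a probe set of their own, 10 in cluster A and 9 in each of clusters B, C and D. Each of the 37 was read by 1 probe set.

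The samples were 12 samples of embryoid bodies, the aggregates that embryonic stem (ES) cells form when they differentiate. All were made from A2lox ES cells of the strain background 129P2/OlaHsd, a line built to take up a transgene that the drug doxycycline (dox) turns on. In the Geminin knockdown line dox induces microRNAs against the endogenous Geminin transcript, and in the Geminin overexpression line it induces Geminin. Dox was used at 0.5 µg/ml in both lines. The knockdown line had dox from day 0 and was collected on day 4, with 3 arrays (replicates 1 to 3) with dox and 3 without. The overexpression line had dox from day 3. Its replicates 1 and 2 were collected on day 5 and its replicate 3 on day 4, each with 1 array with dox and 1 without, so day cannot be told apart from replicate number in this line. Each line carries its transgene in both the dox and the control arrays, and the labels do not say how many clones stand behind a line. The ES cells had been grown on irradiated mouse embryo fibroblasts, which were removed before the embryoid bodies were formed. Nothing in the labels says that replicates were separate cultures, so a p-value reflects only how far these samples spread, and that spread may be technical.

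Hox genes encode homeodomain transcription factors that assign position along the head to tail axis. They sit in 4 clusters that arose by duplication, so that genes of different clusters with the same number are paralogues of each other, and within a cluster the genes with low numbers come on first and act farthest forward. In the early embryo the first of them come on in the primitive streak. Retinoic acid, Wnt and Fgf signals and the Cdx factors switch them on, Polycomb proteins keep them silent, and Trithorax proteins keep them active.

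The results below turn on a few genes, and their proximal promoters are shown for that reason. The window is the 250 bases before the start site in RefSeq (build GRCm38.p6), written 5′ to 3′ on the gene's strand. Capitals mark matches on either strand to 3 motifs, TGATNNAT (a site of the kind that Hox proteins bind together with Pbx), TTTATG (a Cdx site) and AGGTCA (a retinoic acid receptor half-site). Hoxa5, Hoxd4, Hoxd8 and Hoxd9 are shown because they differed most between the day 5 replicates, together with Hoxa3. Hoxb1 is shown because its levels did not overlap between the lines, though it was not called.
Hoxa5, chr6:52204588-52204837, strand -: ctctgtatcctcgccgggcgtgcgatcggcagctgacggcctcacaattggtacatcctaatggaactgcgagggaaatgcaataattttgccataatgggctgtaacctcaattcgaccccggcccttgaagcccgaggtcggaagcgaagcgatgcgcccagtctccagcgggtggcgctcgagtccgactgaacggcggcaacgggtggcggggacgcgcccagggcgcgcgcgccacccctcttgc
Hoxd4, chr2:74721728-74721977, strand +: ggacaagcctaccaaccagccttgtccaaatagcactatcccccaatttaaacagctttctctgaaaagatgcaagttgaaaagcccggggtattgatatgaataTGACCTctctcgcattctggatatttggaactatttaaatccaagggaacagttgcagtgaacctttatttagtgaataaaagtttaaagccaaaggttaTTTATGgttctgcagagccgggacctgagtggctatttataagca
Hoxd8, chr2:74704365-74704614, strand +: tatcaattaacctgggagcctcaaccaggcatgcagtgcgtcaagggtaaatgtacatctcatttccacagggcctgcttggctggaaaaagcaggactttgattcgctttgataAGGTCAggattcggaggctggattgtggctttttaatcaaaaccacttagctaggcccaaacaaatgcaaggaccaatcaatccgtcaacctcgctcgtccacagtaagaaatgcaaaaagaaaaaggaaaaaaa
Hoxd9, chr2:74697513-74697762, strand +: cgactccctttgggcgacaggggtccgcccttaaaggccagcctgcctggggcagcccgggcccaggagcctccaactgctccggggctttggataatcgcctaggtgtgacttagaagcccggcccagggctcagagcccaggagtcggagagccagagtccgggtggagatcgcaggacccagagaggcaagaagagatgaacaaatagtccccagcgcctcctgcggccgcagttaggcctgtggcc
Hoxb1, chr11:96365508-96365757, strand +: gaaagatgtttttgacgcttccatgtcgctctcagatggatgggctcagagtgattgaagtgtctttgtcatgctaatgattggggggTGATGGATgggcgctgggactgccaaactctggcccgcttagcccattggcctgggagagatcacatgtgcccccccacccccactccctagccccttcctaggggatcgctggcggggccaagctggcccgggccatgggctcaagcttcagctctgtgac
Hoxa5 and Hoxd9 held none of the 3 motifs in this window. Hoxd8 held AGGTCA, Hoxd4 held TTTATG and the reverse of AGGTCA, and Hoxb1 held TGATNNAT. The promoter table covers 21 of the 37 genes with 23 windows. AGGTCA stood in 26.09% of these windows and in 14.02% of all 32851 windows of the same length. The shares were 17.39% against 10.76% for TTTATG and 13.04% against 7.683% for TGATNNAT. A match is only a match of letters.

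Geminin (gene Gmnn), which checks the labels, was lower with dox in each pair of the knockdown line and higher in each pair of the overexpression line. Levels are log2 intensities after quantile normalization, and differences are on the same scale. In the knockdown line Gmnn stood at 10.33, 10.15 and 10.05 without dox and at 9.66, 9.74 and 9.63 with dox. In the overexpression line it stood at 10.29 and 10.15 without and 11.38 and 10.83 with dox on day 5, and at 10.35 and 11.04 on day 4. Its dox difference was -0.50 ± 0.14 (SE; limma adjusted p = 0.965) in the knockdown line. In the overexpression line that difference was 0.82 ± 0.14 (SE; limma adjusted p = 0.922). Gmnn itself was thus not called in either line, so a gene not called here may still have changed. The sources used here do not say whether this probe set also detects transgene RNA. The deposited array medians lay between 145.3 and 182.19 in linear intensity. Of the 37 Hox genes, 32 passed the filter on dim genes (mean log2 level above 6.46), 8 in each cluster. The 5 below it were Hoxa3, Hoxa6, Hoxb13, Hoxc10 and Hoxd12. Brightness differs between probe sets for reasons of their probes, so levels are compared within a gene and not between genes. The samples are bulk RNA, in which fewer cells of a type and less RNA per cell cannot be told apart.

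**Figure D1:**
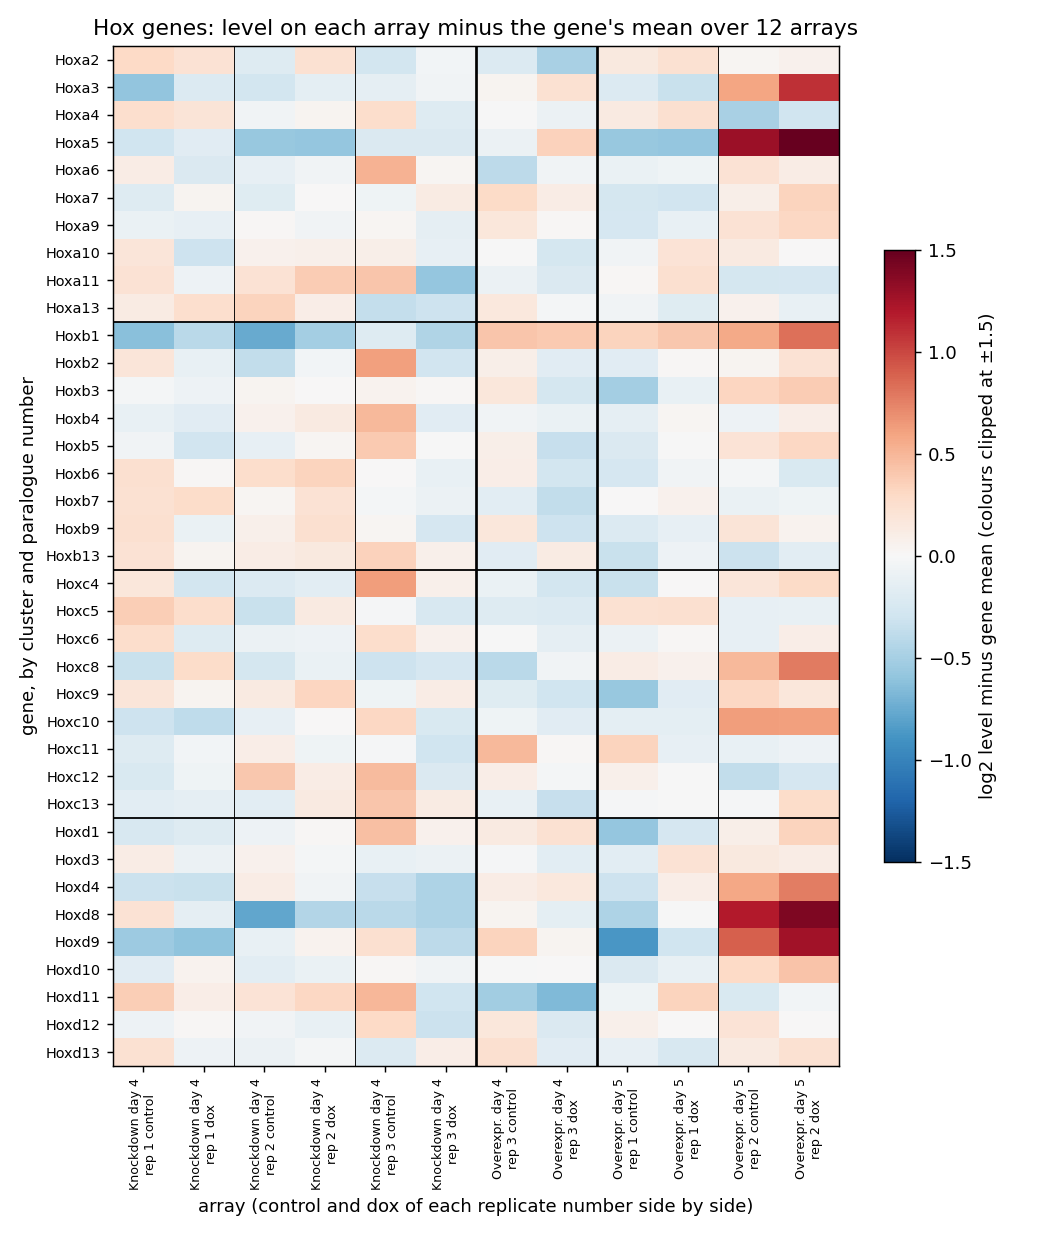
Level of each of the 37 Hox genes (rows, by cluster and paralogue number) on each of the 12 arrays (columns), as the log2 level minus the gene's mean over all arrays. The 2 day 5 arrays of replicate 2 at the right are high for Hoxa5, Hoxd8, Hoxd9, Hoxa3 and Hoxd4, and Hoxb1 is low in all 6 knockdown-line arrays.

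Lowering Geminin from day 0 to day 4 gave no called change in any Hox gene. With limma and Benjamini-Hochberg adjustment over 15950 genes, 0 of 32 passed an adjusted p of 0.05, where 0.00627% of all genes did. At an unadjusted p under 0.05 there were also 0 of 32 (3.76% of all genes, either direction). With dox, 11 of the 32 were higher and 21 lower, with a median difference of -0.09 against 0.01 for all genes. The SEs of the 32 differences lay between 0.11 and 0.53, so small changes were not detectable in this fit. These SEs pool the spread of both lines, including that between the day 5 replicates of the overexpression line. The widest, 0.53 for Hoxa5, was 0.096 in a fit with a term for each line and replicate number. No member was called in that fit either.

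The smallest p values in the knockdown line belonged to Hoxa10, Hoxd11 and Hoxc6, all lower with dox. Hoxa10, a gene of the posterior trunk and limb, stood at 6.99, 6.87 and 6.90 without dox and at 6.499, 6.88 and 6.68 with dox in replicates 1, 2 and 3. The difference was -0.23 ± 0.12 (SE; limma adjusted p = 0.965). The control and dox arrays overlapped, since replicate 2 was the same with and without dox to within 0.01. Hoxd11, which patterns the forearm and the sacral region, stood at 8.87, 8.71 and 9.001 without dox and at 8.60, 8.82 and 8.21 with dox, a difference of -0.32 ± 0.17 (SE; limma adjusted p = 0.965). Its lowest value was the dox array of replicate 3, and replicate 2 went the other way. Hoxa10 in the overexpression line stood at 6.76, 6.94 and 6.79 without and at 7.01, 6.81 and 6.54 with dox in replicates 1, 2 and 3. Hoxc6, a trunk gene, stood in the knockdown line at 7.23, 6.89 and 7.23 without and 6.78, 6.89 and 7.03 with dox (-0.22 ± 0.12 SE; limma adjusted p = 0.965). Here too the groups overlapped. Its levels in the overexpression line were 6.88, 6.85 and 6.96 without and 6.99, 7.06 and 6.84 with dox.

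Hoxa7 and Hoxc8, genes of the thoracic region, were the members in which all 3 dox arrays lay above all 3 controls. Such a separation upward held for 2 of 32 members and 4.97% of all genes tested, and 19.5% of all genes were higher with dox in all 3 pairs. Hoxa7 stood at 7.18, 7.19 and 7.30 without and at 7.41, 7.37 and 7.49 with dox, a difference of 0.20 ± 0.16 (SE; limma adjusted p = 0.965). Hoxc8 stood at 6.70, 6.77 and 6.73 without and at 7.32, 6.94 and 6.78 with dox, a difference of 0.28 ± 0.19 (SE; limma adjusted p = 0.965). The exact two-sided permutation p over the 6 arrays was 0.1 for both, the smallest that 3 arrays against 3 can give. Full separation fixes that p, so it adds no evidence to the separation itself. In the opposite direction no member separated (3.25% of all genes). Hoxb3, Hoxa9 and Hoxd4 were lower with dox in each of the 3 pairs of equal replicate number, by at most 0.16, where 12.2% of all genes tested were lower in all 3.

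The direction of the whole set changed from pair to pair. In replicate 1 of the knockdown line 11 of 32 Hox genes were higher with dox and 21 lower, with a median of -0.06. In replicate 2 there were 24 higher and 8 lower, with a median of 0.09. In replicate 3 there were 7 higher and 25 lower, with a median of -0.21, and the lowest was Hoxa11 at -0.995, followed by Hoxb2 at -0.90 and Hoxd11 at -0.79. Those 3 stood at 8.41, 9.29 and 9.001 on the control array of replicate 3 and at 7.42, 8.39 and 8.21 on its dox array. The median of all tested genes was 0.01, 0.02 and 0.03 in these pairs. That control array also had the highest deposited median intensity of the 12 (182.19, against 148.61 on its dox array). The part of this in the result was not tested.

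**Figure D2:**
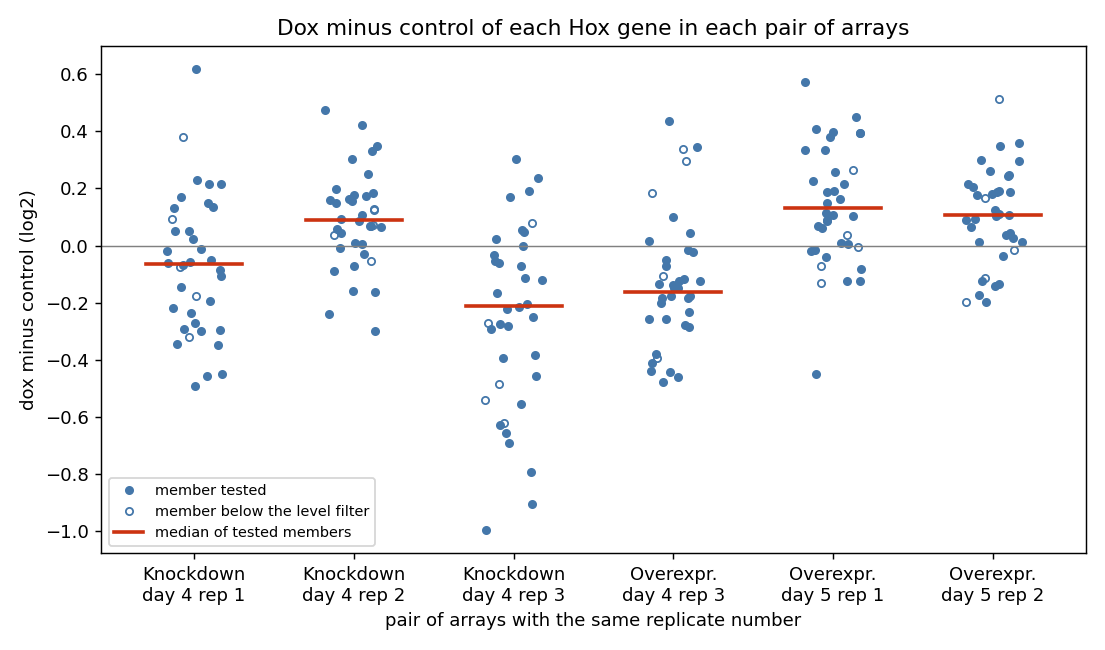
Dox minus control (log2) of each of the 37 Hox genes in each of the 6 pairs of arrays with the same replicate number, with the median of the 32 tested genes as a line. The medians are -0.06, 0.09 and -0.21 in the knockdown line and -0.16, 0.13 and 0.11 in the overexpression line, and they differ in sign within each line.

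Raising Geminin from day 3 gave no called change in any Hox gene either. With limma 0 of 32 passed the adjusted threshold (0.00627% of all genes) and 0 of 32 an unadjusted p of 0.05 (0.934% of all genes). With dox 22 of the 32 were higher and 10 lower, with a median of 0.04 against 0.01 for all genes. By pair the counts of higher and lower were 25 and 7 in replicate 1, 26 and 6 in replicate 2, and 5 and 27 in replicate 3. The pair that differed in direction was the day 4 pair, which has no replicate of its own.

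Hoxc11, a gene of the posterior body, had the smallest p in the overexpression line. It stood at 7.02 and 6.58 without and at 6.57 and 6.62 with dox on day 5, and at 7.18 without and 6.72 with dox on day 4. The difference was -0.29 ± 0.13 (SE; limma adjusted p = 1.00). It was lower with dox in replicates 1 and 3 and not in replicate 2. With array weights in limma it was called (-0.40, adjusted p = 0.0477), as were many more of all genes than in the main fit. Hoxb9 (-0.17 ± 0.16 SE) stood at 7.92 and 8.32 without and 8.01 and 8.18 with dox on day 5, and at 8.29 and 7.82 on day 4. Hoxc8 (0.20 ± 0.19 SE) stood at 7.15 and 7.52 without and 7.11 and 7.82 with dox on day 5, and at 6.64 and 6.98 on day 4. Both groups overlapped in both genes. In the knockdown line Hoxc11 stood at 6.503, 6.79 and 6.67 without and at 6.65, 6.63 and 6.40 with dox, and Hoxb9 at 8.37, 8.21 and 8.15 without and at 8.03, 8.37 and 7.87 with dox.

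Of the 32 tested members Hoxd1, Hoxd4 and Hoxd10 stood higher with dox in all 3 pairs (16.6% of all genes tested) and Hoxa13, the last gene of cluster A, lower in all 3 (10.5%). Of the 5 members below the filter Hoxb13 was higher in all 3 pairs, by 0.17 to 0.30. Hoxc10 and Hoxd12 were lower in all 3, by at most 0.11 and 0.39. The shares above are of tested genes, and none was computed over genes below the filter. Hoxa13 stood at 8.08, 8.20 and 8.29 without and at 7.96, 8.02 and 8.11 with dox in replicates 1, 2 and 3. Its difference was -0.16 ± 0.18 (SE; limma adjusted p = 1.00). In an exact two-sided permutation within day, Hoxa13, Hoxb13 and Hoxd12 reached 0.1667, the smallest p that this design allows. Dox and control arrays of these genes did not overlap within either day, which fixes that p, so it adds no evidence.

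The remaining members with the brightest probe sets overlapped between dox and control arrays in both lines. Hoxb6, a trunk gene, stood at 9.04, 9.07 and 8.80 without and at 8.82, 9.14 and 8.69 with dox in the knockdown line. In the overexpression line it stood at 8.56, 8.77 and 8.91 without and at 8.75, 8.57 and 8.53 with dox in replicates 1, 2 and 3. Its dox differences were -0.09 ± 0.14 and -0.13 ± 0.14 (SE).

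Hoxa4, a gene of the neck region, stood at 8.99, 8.69 and 8.997 without and at 8.93, 8.78 and 8.54 with dox in the knockdown line, and Hoxb2, a hindbrain gene, at 8.86, 8.31 and 9.29 without and 8.57, 8.64 and 8.39 with dox. In replicates 1, 2 and 3 of the overexpression line Hoxa4 stood at 8.87, 8.26 and 8.73 without and at 8.98, 8.44 and 8.66 with dox. Hoxb2 stood there at 8.51, 8.72 and 8.76 without and at 8.70, 8.90 and 8.51 with dox. The dox differences of Hoxa4 were -0.14 ± 0.19 and 0.07 ± 0.19 (SE), and those of Hoxb2 were -0.29 ± 0.21 and 0.04 ± 0.21 (SE). Hoxa13, whose overexpression values are given above, stood at 8.26, 8.47 and 7.78 without and at 8.39, 8.23 and 7.82 with dox in the knockdown line (-0.02 ± 0.18 SE).

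The difference between both dox effects, knockdown minus overexpression, was called for 0 of 32 Hox genes and for 0 of all 15950 genes by limma. At an unadjusted p under 0.05 it was 0 of 32 and 340 of all genes, or 2.13%. The smallest p values were those of Hoxd11 (-0.47 ± 0.24 SE), Hoxc6 (-0.29 ± 0.17 SE) and Hoxb4 (-0.32 ± 0.21 SE), with an adjusted p of 1.00 each in limma. Hoxb4, a gene of the neck region, stood at 7.34, 7.51 and 7.93 without dox and at 7.27, 7.58 and 7.27 with dox in the knockdown line. In the overexpression line Hoxb4 stood at 7.31, 7.37 and 7.39 without and at 7.47, 7.54 and 7.34 with dox in replicates 1, 2 and 3. Its highest value of the 12 was again the control array of knockdown replicate 3.

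**Figure D3:**
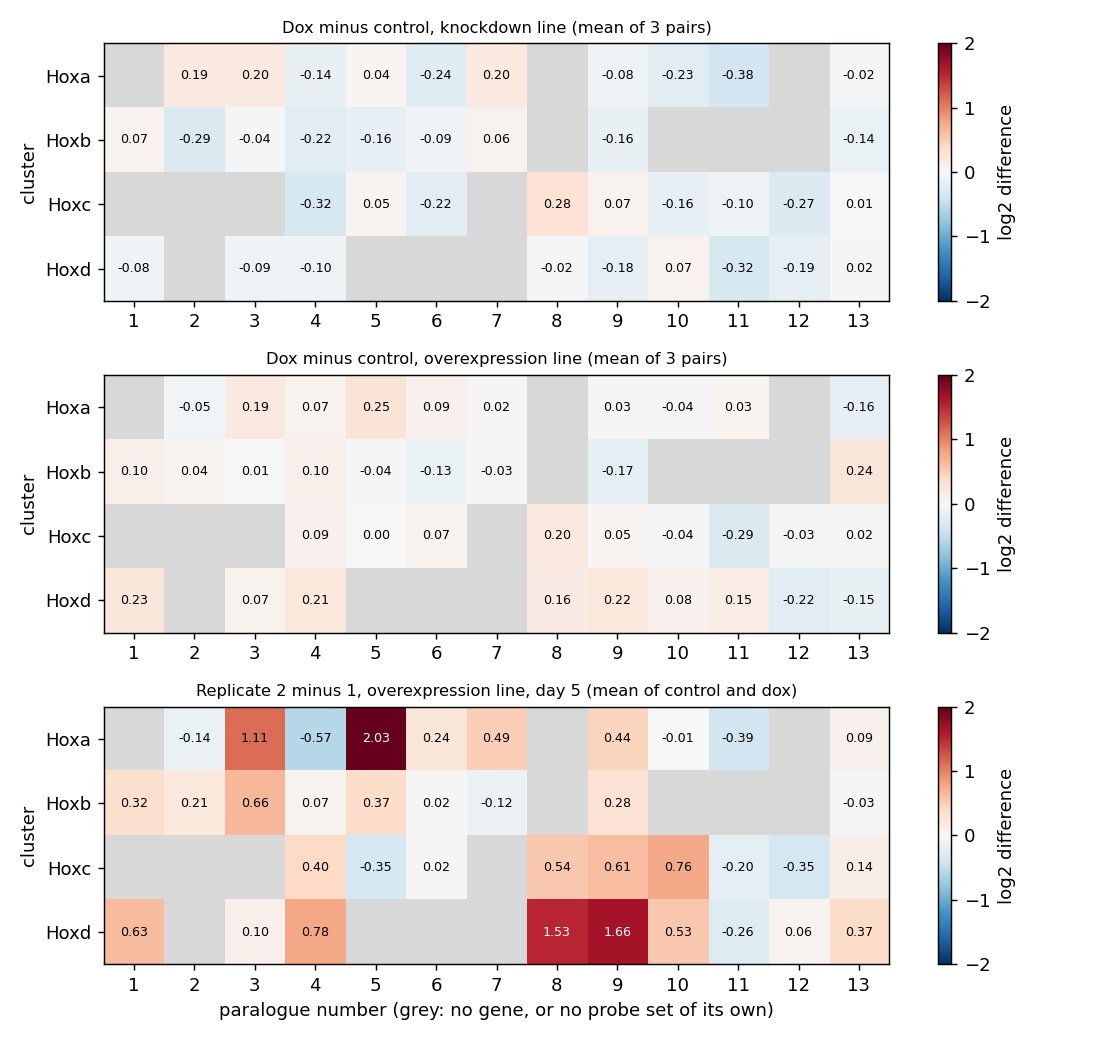
Log2 differences of the 37 Hox genes laid out by cluster (rows) and paralogue number (columns), for dox minus control in the knockdown line, dox minus control in the overexpression line (each the mean of 3 pairs) and replicate 2 minus replicate 1 of the overexpression line on day 5 (mean of the control and dox differences). The dox differences lie between -0.38 and 0.28, and the replicate differences reach 2.03 for Hoxa5, 1.66 for Hoxd9 and 1.53 for Hoxd8.

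Hoxb1 was the 1 tested Hox gene whose levels did not overlap between the arrays of the lines. Hoxb1 marks the early primitive streak and later a single segment of the hindbrain. In the knockdown line it stood at 7.58, 7.44 and 8.0045 without and at 7.79, 7.69 and 7.75 with dox. In the overexpression line it stood at 8.62 and 8.59 on day 4, at 8.54 and 8.76 without dox on day 5, and at 8.61 and 9.03 with dox on day 5. All 6 arrays of the overexpression line were above all 6 of the knockdown line. It was the only one of the 32 members to do so, a share near the 3.15% of all genes that did, and none lay wholly below (1.82%). The overexpression arrays include those of day 5 and the knockdown arrays are all of day 4, so this separation mixes line with day. On day 4 the lines differed by 0.88 ± 0.19 (SE), which did not pass the adjustment (limma adjusted p = 0.107). Without the control array of knockdown replicate 3 the difference was 1.04 and passed (limma adjusted p = 0.0424). That was the largest difference and the lowest adjusted p among the fits that left out 1 array. The smallest difference among them was 0.75. The dox effects of Hoxb1 were 0.07 ± 0.16 and 0.10 ± 0.16 (SE) in the knockdown and overexpression line.

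Between the lines on day 4, 0 of 32 members were called (0.307% of all genes), and 3 had an unadjusted limma p under 0.05 (11.6% of all genes). These were Hoxb1, Hoxd11 and Hoxc11. Hoxd11 was lower in the overexpression line on day 4, where it stood at 7.98 without and 7.84 with dox, below all 6 knockdown-line arrays (8.21 to 9.001). That difference was -1.03 ± 0.21 (SE; limma adjusted p = 0.0852), and it passed with median centring in place of quantile normalization (-0.96, adjusted p = 0.0480). Hoxc11 was higher in the overexpression line by 0.44 ± 0.16 (SE; limma adjusted p = 0.340), with the 2 day 4 arrays at 7.18 and 6.72 and the knockdown-line arrays between 6.40 and 6.79. The groups overlapped for Hoxc11 and not for Hoxd11 or Hoxb1. With array weights all 3 were called, as were many more of all genes than in the main fit (counts in the closing section). Taking the day 4 arrays alone, Hoxb1, Hoxa5 and Hoxd4 were above all knockdown-line arrays (8.11% of all genes) and Hoxd11, Hoxb7 and Hoxc9 below them all (8.41%). The lines on day 4 also differed in genes of the streak and paraxial mesoderm, for which 6 of 6 streak markers had an unadjusted p under 0.05 and were higher in the overexpression line, and 2 of 6 paraxial and posterior markers were called higher. The summed linear level of the streak markers was 9408 and 10744 in the overexpression line on day 4 and between 1030 and 6250 in the knockdown line. Their part in the Hoxb1 and Hoxd11 differences was not tested.

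Within the overexpression line, day 5 against day 4 gave 0 of 32 called (0.558% of all genes by limma). Hoxd11, Hoxc8 and Hoxa2 had an unadjusted p under 0.05 and were higher on day 5 (7.52% of all genes were higher at that level). Hoxd11 stood at 7.98 and 7.84 on day 4 and at 8.44, 8.83, 8.28 and 8.47 on day 5, a difference of 0.59 ± 0.18 (SE; limma adjusted p = 0.1674). Hoxc8 stood at 6.64 and 6.98 on day 4 and between 7.11 and 7.82 on day 5 (0.59 ± 0.20 SE; limma adjusted p = 0.214). Hoxa2, a gene of the hindbrain and branchial arches, stood at 7.28 and 7.01 on day 4 and, in replicates 1 and 2 on day 5, at 7.64 and 7.53 without and 7.72 and 7.55 with dox (0.46 ± 0.16 SE; limma adjusted p = 0.228). In the knockdown line Hoxa2 stood at 7.79, 7.30 and 7.21 without and at 7.70, 7.72 and 7.45 with dox, a range that takes in all its day 5 values. All day 5 arrays lay above both day 4 arrays for 6 of the 32 members (15.4% of all genes), which were Hoxa2, Hoxb7, Hoxc5, Hoxc8, Hoxc13 and Hoxd11. None lay wholly below (15.1% of all genes). With array weights Hoxa2, Hoxc8 and Hoxd11 were called, as were many more of all genes than in the main fit (counts in the closing section). The knockdown line has no day 5 arrays, so no other line gives this comparison.

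The largest differences among Hox genes in these arrays lay between replicates of equal treatment. This comparison, replicate 2 minus replicate 1 of the overexpression line on day 5, was added after the data were seen, and no filter on dim genes was used for it. Each replicate number has 1 control and 1 dox array here. The SE and p reflect how far the dox difference varied between replicate numbers. They do not measure how far cultures of equal treatment spread. The deposited median intensity of the arrays was 161.73 and 175.36 in replicate 1 and 145.3 and 150.51 in replicate 2, without and with dox, and the part of this in the result was not tested. The Hoxa5 difference was 1.94 with no quantile normalization. Hoxa5, which patterns the neck and the lung, stood at 6.18 without and 6.16 with dox in replicate 1, and at 8.03 without and 8.38 with dox in replicate 2. It stood at 6.66 and 7.09 on day 4, and at 6.44, 6.18 and 6.53 without and 6.58, 6.17 and 6.53 with dox in the knockdown line, so both arrays of replicate 2 were above all others. The difference was 2.03 ± 0.12 (SE; limma adjusted p = 0.00219).

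Of cluster D, Hoxd4, Hoxd8 and Hoxd9 went the same way, and Hoxd3 was not called (0.10 ± 0.14 SE; limma adjusted p = 0.685). Hoxd8 stood at 6.19 and 6.64 in replicate 1 and at 7.84 and 8.04 in replicate 2, without and with dox (1.53 ± 0.20 SE; limma adjusted p = 0.0126). Hoxd9 stood at 6.84 and 7.41 in replicate 1 and at 8.61 and 8.96 in replicate 2 (1.66 ± 0.24 SE; limma adjusted p = 0.0164). Hoxd4 stood at 6.41 and 6.81 in replicate 1 and at 7.29 and 7.48 in replicate 2 (0.78 ± 0.11 SE; limma adjusted p = 0.0138). For each of these 3 genes the replicate 2 arrays were the highest 2 of the 12. On day 4 Hoxd8 stood at 6.68 and 6.498 and Hoxd9 at 8.03 and 7.75, without and with dox. In the knockdown line Hoxd8 stood at 6.86, 5.86 and 6.24 without and at 6.51, 6.21 and 6.18 with dox. Hoxd9 stood there at 7.16, 7.59 and 7.94 without and at 7.0986, 7.76 and 7.31 with dox. Both genes thus overlapped between dox and control arrays of the knockdown line. Hoxa3, which was below the filter, behaved alike with 6.10 and 5.97 against 6.89 and 7.40 (1.11 ± 0.16 SE; limma adjusted p = 0.0151). On the other arrays Hoxa3 stood at 6.34 and 6.53 on day 4, and at 5.71, 6.03 and 6.17 without and 6.09, 6.16 and 6.25 with dox in the knockdown line.

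In all, 10 of 37 Hox genes were called higher in replicate 2 and 0 lower, where 4.41% of all 19938 genes were called higher and 2.69% lower. The other 5 called were Hoxa7, Hoxa9, Hoxc10, Hoxd1 and Hoxd10, with differences between 0.44 and 0.76. Without and with dox, Hoxa7 stood at 7.10 and 7.09 in replicate 1 and at 7.46 and 7.71 in replicate 2. Hoxa9, a gene of the posterior trunk, stood at 6.81 and 6.96 in replicate 1 and at 7.28 and 7.37 in replicate 2. Hoxc10 stood at 6.15 and 6.15, then at 6.92 and 6.90, the highest of its 12 values. Hoxd1, the first gene of cluster D, stood at 6.87 and 7.20, then at 7.54 and 7.79. Hoxd10 stood at 6.69 and 6.80, then at 7.21 and 7.34, its highest 2 values. In none of the 5 did the replicates overlap.

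On the other 8 arrays these 5 genes showed the following levels, first without and then with dox. On day 4 of the overexpression line Hoxa7 stood at 7.66 and 7.48, Hoxa9 at 7.24 and 7.09, Hoxc10 at 6.23 and 6.12, Hoxd1 at 7.58 and 7.68, and Hoxd10 at 6.91 and 6.92. The knockdown-line values of Hoxa7 are given above, and Hoxa9 stood there at 6.96, 7.08 and 7.09, then at 6.94, 7.01 and 6.93. For Hoxa7 and Hoxd1 the replicate 2 arrays were not the highest 2 of the 12. In the knockdown line Hoxc10 stood at 5.98, 6.17 and 6.61, then at 5.91, 6.298 and 6.07. Hoxd1 stood there at 7.21, 7.38 and 7.90, then at 7.26, 7.47 and 7.52. Hoxd10 stood there at 6.75, 6.76 and 6.93, then at 6.96, 6.82 and 6.86. In these 3 genes the dox and control arrays of the knockdown line overlapped.

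Replicate 2 was above replicate 1 by more than 0.5 both with and without dox for 8 of 37 members (3.54% of all genes), and below by more than 0.5 for Hoxa4 (2.52% of all genes). Hoxa4 stood at 8.87 and 8.98 in replicate 1 and at 8.26 and 8.44 in replicate 2, a difference of -0.57 ± 0.14 (SE; limma adjusted p = 0.0591). So Hoxa4 stood lower in the arrays in which its neighbours Hoxa3 and Hoxa5 were higher. With the 20th percentile filter used for the other comparisons, 10 of 32 members were called higher and 1, Hoxa4 (adjusted p = 0.0365), lower, where 8.06% of all 15950 genes were called higher and 5.6% lower by limma. That filter added Hoxb3 (0.66, adjusted p = 0.0480) and Hoxc9 (0.61, adjusted p = 0.0400) to the members called higher, and did not test Hoxa3 and Hoxc10. The filter takes a gene's mean over all arrays, replicate 2 included, so members high on the replicate 2 arrays pass it more easily. Hoxa5 (mean 6.75) and Hoxd8 (mean 6.64) passed its level of 6.46 with those arrays counted. The filtered counts are therefore not independent of the difference tested.

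The calls rest on 4 arrays. Leaving out any 1 of them left 1, 1, 1 and 0 Hox genes called, and the 0 came without the dox array of replicate 2. The Hoxa5 difference was between 1.83 and 2.24 in these fits. With no quantile normalization 4 Hox genes were called and with a filter at the 40th percentile 5. This filter, too, takes the mean over all arrays, those of replicate 2 included.

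**Figure D4:**
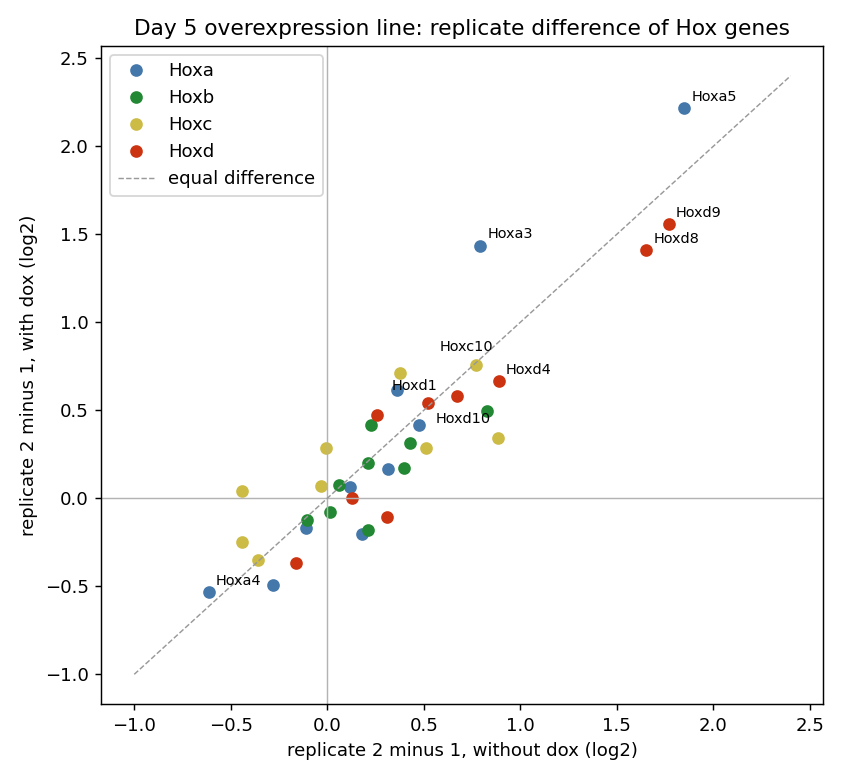
Replicate 2 minus replicate 1 (log2) of the overexpression line on day 5 for the 37 Hox genes, without dox on the x axis and with dox on the y axis, coloured by cluster. Hoxa5, Hoxd8 and Hoxd9 lie far out on both axes near the line of equal difference, and Hoxa4 lies on the negative side of both.

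By cluster, all 3 differences over 1.5 belonged to Hoxa5, Hoxd8 and Hoxd9. In cluster D 7 of 9 members were higher in replicate 2 both with and without dox and 5 of 9 by more than 0.5, with a median of 0.53. The corresponding counts over 0.5 were 2 of 10 in cluster A, 0 of 9 in cluster B and 1 of 9 in cluster C, and the medians were 0.17, 0.21 and 0.14. By paralogue number the medians were 0.32 for numbers 1 to 3 (7 genes), 0.31 for 4 to 8 (14 genes) and 0.11 for 9 to 13 (16 genes). Over all genes the median was -0.005, and 36.86% were higher in replicate 2 both with and without dox, 3.54% by more than 0.5. All 13 paralogue numbers had over 1 member. In 3 of them, numbers 1, 8 and 9, every member was higher in replicate 2 both with and without dox, and in none was every member lower. Numbers 1 and 8 held only 2 members each and number 9 held 4. The group 9 genes differed by 0.44 (Hoxa9), 0.28 (Hoxb9), 0.61 (Hoxc9) and 1.66 (Hoxd9). In 5 numbers 1 or more members were higher and 1 lower both with and without dox, such as number 4, with Hoxd4 at 0.78 and Hoxa4 at -0.57, and number 5, with Hoxa5 at 2.03 and Hoxc5 at -0.35 ± 0.16 (SE; limma adjusted p = 0.217). The lower members of those 5 numbers did not pass the test in this fit. Hoxd11, at the posterior end of the same cluster as Hoxd8 and Hoxd9, stood at -0.26 ± 0.22 (SE; limma adjusted p = 0.476).

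The difference between the replicates without dox and the one with dox correlated across the 37 Hox genes (r = 0.901), and across all 19938 genes r was 0.663. These are correlations across genes on the same 4 arrays, and genes are not independent. Over the 12 arrays Hoxa5 correlated with the 9 other members called in this comparison at r = 0.950 (Hoxd10), 0.932 (Hoxa3), 0.904 (Hoxd8), 0.834 (Hoxd9), 0.808 (Hoxa9), 0.786 (Hoxd4), 0.775 (Hoxc10), 0.688 (Hoxa7) and 0.528 (Hoxd1). Without both day 5 arrays of replicate 2 the same values over 10 arrays were 0.709, 0.657, 0.364, 0.334, 0.431, 0.098, -0.097, 0.684 and 0.560. The values for Hoxd8, Hoxd9, Hoxa9, Hoxd4 and Hoxc10 thus rest largely on those 2 arrays, and those for Hoxa7 and Hoxd1 do not. The 9 genes were picked for being high on the same replicate 2 arrays, so high r over 12 arrays follows in part from that choice. Among members not called, r with Hoxa5 over 12 arrays lay between -0.764 (Hoxa4) and 0.743 (Hoxc8). Between Hoxd9 and Hoxc10 r was 0.890 over 12 and 0.666 over 10 arrays.

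**Figure D5:**
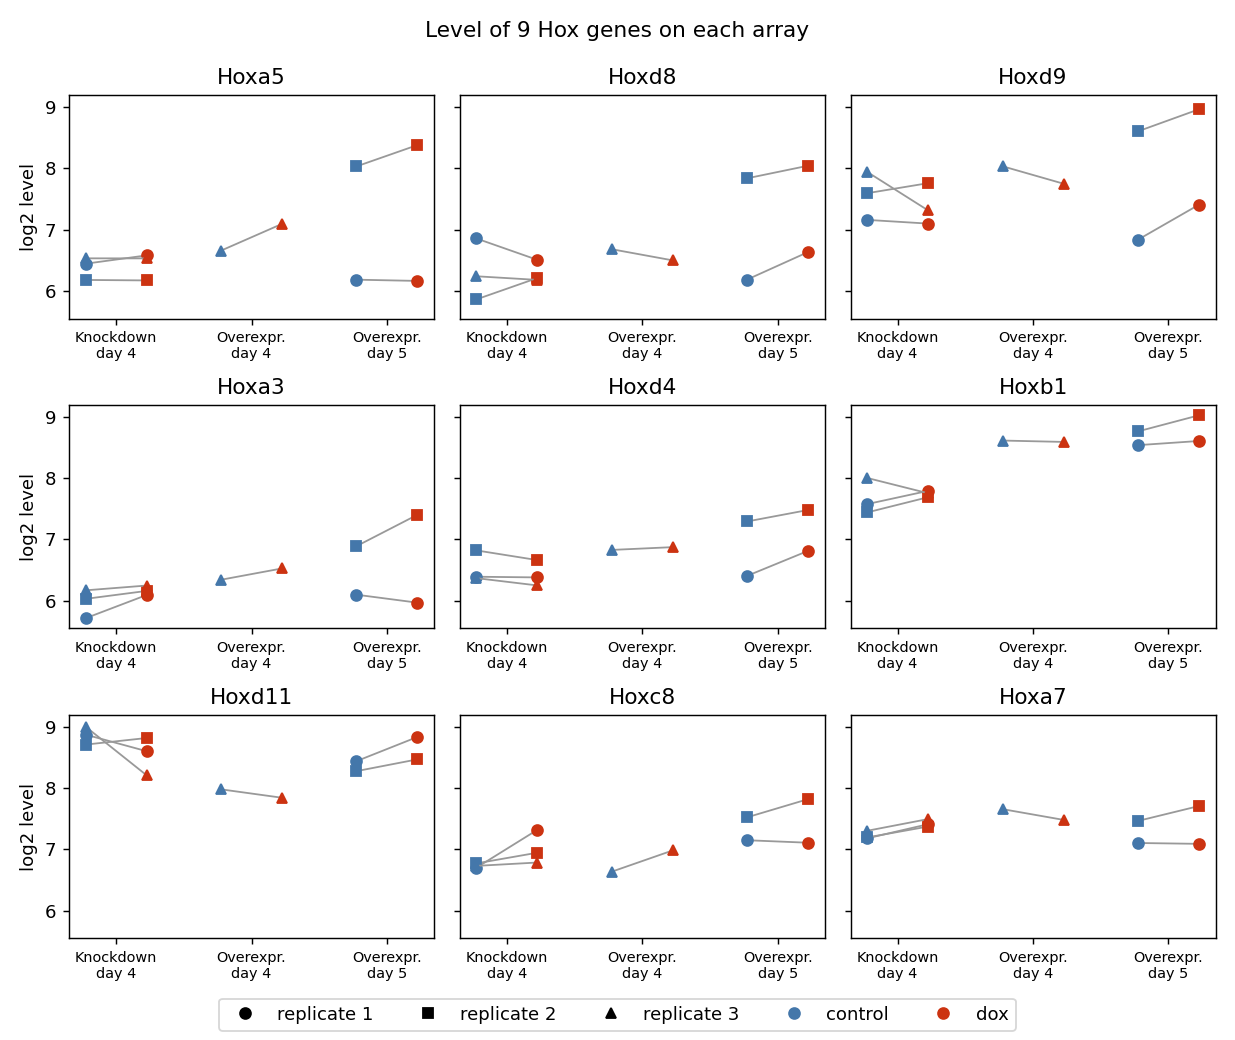
Log2 level of 9 Hox genes on each of the 12 arrays, by line and day, with control (blue) and dox (red) arrays of the same replicate number joined by a line. In the upper row and in Hoxa3 and Hoxd4 the squares of day 5 replicate 2 stand above the circles of replicate 1 with and without dox, and Hoxb1 is higher in the overexpression line on both days.

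Between replicates of the knockdown line 1 Hox gene was called. Replicate 2 minus 1 and replicate 3 minus 1 gave 0 of 32 members called (7.55% and 0.0188% of all genes by limma). Replicate 3 minus 2 gave 1, Hoxa13, at -0.55 with an adjusted p of 0.0411 (2.56% of all genes). Hoxa13 stood at 8.47 and 8.23 in replicate 2 and at 7.78 and 7.82 in replicate 3, without and with dox.

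Other genes differed between the day 5 replicates too. Among 24 upstream regulators of Hox genes 8 were called higher in replicate 2 and 1 lower. Cdx4, a caudal-type homeobox factor, stood at 5.40 and 5.27 in replicate 1 and at 7.25 and 7.26 in replicate 2, without and with dox (1.92 ± 0.11 SE; limma adjusted p = 0.00182), which made these the highest 2 of its 12 values. The other upstream genes called higher were Cdx2 (0.79 ± 0.17 SE), the retinoic acid receptors Rara (0.83) and Rarg (0.56), the retinoic acid enzyme Aldh1a2 (0.62), the retinoic acid binding protein Crabp1 (1.21), Wnt5a (1.13) and Fgf4 (0.84). Wnt8a was lower (-1.07). Among 26 chromatin regulators 8 were called higher and 1, Men1, lower. They included Trithorax-type genes (Kmt2a, Kmt2b, Ash2l, Rbbp5 and Wdr5) and the Polycomb-type genes Cbx7 and Eed, with differences between 0.37 and 0.72.

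Of 8 Hox cofactors Meis2 was called higher (0.78 ± 0.09 SE; limma adjusted p = 0.0116), and of 13 genes that flank the clusters none was called, where Skap2 had the smallest p (0.42 ± 0.10 SE; limma adjusted p = 0.0504). Of 15 ParaHox and other homeobox genes 2, Cdx2 and Cdx4, were called higher and 2 lower, the head genes Otx2 (-1.21 ± 0.12 SE; limma adjusted p = 0.00855) and Gsc (-1.62 ± 0.25 SE; limma adjusted p = 0.0190). Of the 6 microRNA hairpins that lie within the clusters, a list added after the data were seen, 0 were called and 0 had an unadjusted p under 0.05 in limma.

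Markers of cell types moved with the replicate number as well. Of 6 haemangioblast markers 4 were called higher in replicate 2 (Lmo2, Etv2, Gata2 and Kdr), and their summed linear level was 4203 and 4295 in replicate 2 and 2549 and 2704 in replicate 1. Of 6 streak markers 2 were called lower (Gsc and Eomes), with sums of 5353 and 5455 against 9373 and 9518. Of 6 pluripotency markers 2 were called higher (Sox2 and Esrrb) and 1 lower (Tdgf1), with sums of 17748 and 18310 against 17380 and 19171. Of 4 neural markers 1, Zic1, was called higher, and of 6 paraxial and posterior markers 1, Cdx2. None of 6 visceral endoderm markers was called, and 1 had an unadjusted limma p under 0.05 upward and 2 downward. Of 15 fibroblast markers 1 was called, Col1a1 at 0.79 ± 0.08 (SE; limma adjusted p = 0.00817), which stood at 8.62 and 8.73 in replicate 1 and at 9.47 and 9.46 in replicate 2. The fibroblast sums were 4300 and 4464 in replicate 2 and 4132 and 4145 in replicate 1, and Postn and Lum stayed below the filter level on all 12 arrays. The part of these cell types in the Hox differences was not tested. The labels do not say in what way replicates 1 and 2 differed.

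For the dox comparisons the same lists held 0 called genes in both lines in limma. At an unadjusted p under 0.05, 2.17% of all genes were higher and 1.59% lower in the knockdown line. In the overexpression line these shares were 0.345% and 0.589%. At that level 1 of 23 upstream regulators was higher in the knockdown line (Rxrg, 0.52 ± 0.13 SE) and 1 lower in the overexpression line (Cyp26c1, -0.24 ± 0.10 SE). Of 26 chromatin regulators and 8 cofactors 0 passed it in either line. Of 12 genes flanking the clusters, Evx1 (0.82 ± 0.33 SE), next to cluster A, was higher and Ttll6 (-0.34 ± 0.10 SE), next to cluster B, lower in the knockdown line at that level. In the same comparison the hairpin Mir615 of cluster C was lower (-0.43 ± 0.18 SE), as was Zfp42, 1 of 6 pluripotency markers (-0.80 ± 0.23 SE). The streak markers had a median dox difference of 0.75 in the knockdown line with 6 of 6 higher, of which 1 had an unadjusted p under 0.05, while the Hox genes had a median of -0.09. A probe set shared by Hoxb7 and Hoxb8 was lower with dox in all 3 pairs of both lines. It stood at 7.05, 6.61 and 7.07 without and 6.57, 6.34 and 6.80 with dox in the knockdown line, and at 6.89, 7.61 and 7.39 without and 6.57, 7.38 and 6.79 with dox in replicates 1, 2 and 3 of the overexpression line. The control and dox arrays overlapped in both lines. Of all genes tested, 12.2% were lower in all 3 pairs of the knockdown line and 10.5% in all 3 of the overexpression line. The share lower in all pairs of both lines was not computed. The shared probe set was outside the rule, was looked at after the data were seen and was not tested.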

How the data were processed

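Total RNA, 1 µg per sample, was labelled with biotin and hybridised to 1 array per sample, per the labels' protocols. The authors deposited linear intensities, with 1 value for each probe set on each array. How they were summarised, background corrected and normalized, and on which genome build, is not given in the sources used here. These steps matter most for dim probe sets. Precision is limited by the number of arrays.

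The deposited values were transformed as log2(intensity + 1) and quantile normalized over 35512 probe sets, since array medians spanned 0.324 on the log2 scale. The annotation named 1 gene for 21789 probe sets, several for 1621 and none for 12102. The brightest probe set stood for each of 19938 genes. Genes with a mean below the 20th percentile were not tested, which left 15950. limma 3.58.1 (R 4.3.3) fitted all 12 arrays with a baseline per line and day and 1 dox effect per line, with Benjamini-Hochberg adjustment. The replicate contrasts came from a fit with a term for each line and replicate number. Their SE and p do not measure the spread between cultures of equal treatment. Standard errors (SE) are the model's. Single genes also had exact permutation tests. The steps were tested on simulated arrays.

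The members and lists were chosen with earlier results of these data known. Values on every array are given for the 6 members with the brightest probe sets, the 3 with the smallest p in each contrast, members called, and Hoxb1, with those of Hoxd4 in the closing section. The brightest were Hoxb6, Hoxa4, Hoxb2, Hoxd11, Hoxb1 and Hoxa13. Each list's 2 smallest p values were computed for each contrast, and only those that bear on a result are printed. Hoxa3, Hoxa4, Hoxa7, Hoxa11, Hoxc5, Hoxd3 and the shared probe set were chosen after their values were seen. Alternatives were other normalizations, pseudocounts and filters, array weights, a replicate block, the mean over probe sets, each line alone and leaving out each array.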

Additional observations from a re-analysis of the deposited data

Results flagged for a closer look

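Hoxd4 was lower with dox in all 3 pairs of the knockdown line and higher in all 3 pairs of the overexpression line. It stood at 6.39, 6.82 and 6.37 without and at 6.38, 6.66 and 6.25 with dox in the knockdown line. In the overexpression line it stood at 6.41, 7.29 and 6.83 without and at 6.81, 7.48 and 6.87 with dox in replicates 1, 2 and 3. The difference of the dox effects, knockdown minus overexpression, was -0.31 and did not pass limma's adjustment (adjusted p = 1.00). Of the 37 Hox genes 1 showed such opposite pairs, as did 775 of all tested genes, or 4.86%.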

How the results depend on the processing

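No Hox gene was called for dox in the knockdown line or for the difference between the lines under any alternative. For dox in the overexpression line 1 was called with array weights. Day 5 against day 4 gave 3 with array weights, and the lines on day 4 gave 3 with array weights, 1 with median centring (Hoxd11) and 0 to 1 when each array was left out. The day 5 replicate comparison had 10, with 11 under a 20th percentile filter, 5 under a 40th percentile filter, 4 with no quantile normalization and 0 to 10 when each array was left out. The filters take the mean over all arrays, so members high in day 5 replicate 2 pass them more easily. The dox difference of Hoxb1 changed sign in the knockdown line with no quantile normalization (-0.012), and it lay between -0.045 and 0.24 when each array was left out. In the overexpression line it lay between -0.035 and 0.20 when each array was left out. The lowest values came without the control array of knockdown replicate 2 and without the dox array of day 5 replicate 2. Its day difference was -0.030 without both day 5 arrays of replicate 2. The cause was not tested. The members' median for dox in the overexpression line lay between -0.07 and 0.14 when each array was left out. Over all genes, array weights raised the counts called from 1 to 201 (dox, overexpression), from 89 to 2567 (day) and from 49 to 1170 (lines). Day gave 33 with median centring, 27 with no filter and 3 without day 5 replicate 2, with 0 to 148 when each array was left out. The lines gave 29 with no filter, 30 with no quantile normalization, 0 without knockdown replicate 3, and 0 to 80. The replicate comparison gave 1417, with 2179 and 2560 under 20th and 40th percentile filters, 3906 with array weights, and 0 to 2030.

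With a replicate block within each line 0 Hox genes were called for dox in either line, and 1 gene of all in each. At an unadjusted p under 0.05 the block gave 0 members and 1941 genes in the knockdown line (599 without it) and 2 members, Hoxa5 and Hoxd4, and 572 genes or 3.59% in the overexpression line (149 without it). For the difference between the lines it gave Hoxd4 and 1384 genes or 8.68% (340 without it). Deviations of arrays with equal numbers correlated over all tested genes at 0.602, 0.438 and 0.051 in the knockdown line and 0.785 on day 5. Over the 32 Hox genes the values were 0.481, 0.323, 0.379 and 0.912, and those of unequal numbers were all below 0. Deviations from a group mean sum to 0, so positive values at equal numbers push those at unequal numbers below 0. The negative sign is therefore no evidence of pairing. Since the check was made over all genes and 1 of its values was under 0.1, the numbers were not taken as pairs for the dox effects. The replicate comparisons do rest on grouping arrays by number. The day comparisons and the lines on day 4 are lost in the block.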
